A study of Mus musculus with 8 samples.

Results

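Solute carriers, ion channels and ion pumps move nutrients, metals and salts across membranes. The genes described here were taken from the deposited comparison by gene symbol alone: every listed gene whose symbol belongs to the families *Slc*, *Slco*, *Abca* to *Abcg*, *Kcn*, *Cacn*, *Scn*, *Clcn*, *Clca*, *Ano*, *Trpc*, *Trpm*, *Trpv*, *Atp* or *Aqp*, except the surfactant lipid transporter *Abca3*. This gave 30 of the 812 listed genes, of which 17 are solute carriers and 13 are channels, ATP-driven pumps or other transporters. The RNA came from primary alveolar type II (AT2) cells of C57BL/6 mice of 2 genotypes, RhoA fl/fl (called WT) and Sftpc-cre;RhoA fl/fl (called RhoA-deficient), so both carried the floxed *RhoA* alleles and only the latter carried Cre. Cells of both groups were in culture at a single passage and were given 50 μg/mL of cockroach extract (CRE), an allergen, for 16 hours, so no group without CRE was compared. Cre is driven by the *Sftpc* promoter, so the deletion can reach cells that use this promoter and descendants of cells that once did. GEO's labels list 4 samples of each genotype, whereas the table gives 1 average FPKM (fragments counted for a gene, scaled to transcript length and to the fragments mapped in the library) per gene and genotype, made by the authors. *Rhoa* and *Sftpc* were not analysed here, so neither the deletion nor the driver gene could be checked in these values. The paper reports loss of RhoA protein in isolated AT2 cells by Western blot. In lung sections it reports RhoA as lost from AT2 cells and retained in central airways and basal cells.

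AT2 cells make surfactant and keep the fluid layer of the alveolus thin by moving sodium, chloride and water. They recycle surfactant phospholipid, take up the phosphate this releases through a sodium-phosphate cotransporter, and acidify lamellar bodies, the storage organelles of surfactant, with a vacuolar proton pump. Chloride-bicarbonate exchangers set the pH of the lining fluid, potassium channels set the membrane voltage that drives other ions, and metal transporters bring in zinc, iron and copper.

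Of the 30 transport genes, 22 were higher and 8 were lower in RhoA-deficient than in WT cells. Every gene in the table had been selected by the authors as differing between the same 2 groups, so a difference in each member was fixed by the selection, and only its direction and size are described. Among all 812 listed genes, 55.2% were higher and 44.8% lower, against 73.3% higher among the transport genes. The paper counts fewer differing genes than the 812 listed, for a reason not given, so these shares are those of the table. The table gives no value per sample, so no spread between samples can be given and no test was run here. The authors' own test, which chose the listed genes, and its statistics were not used, so the differences below carry no error, and it cannot be seen whether the samples of the groups overlap. In RNA from whole cultures, fewer cells of a type and less RNA per cell cannot be told apart.

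The largest upward differences in log2(FPKM + 1) were in the anion and phosphate transporters. *Slc26a4*, which encodes pendrin, an exchanger of chloride for bicarbonate and iodide, was 2.46 FPKM in WT and 51.1 FPKM in RhoA-deficient cells. The difference in log2(FPKM + 1), the scale on which differences are given unless stated, was 3.91, the largest of all members and rank 2 among the higher listed genes, just after the secreted protein *Retnla* at 3.92. As a plain FPKM ratio it was 20.8-fold, above *Retnla* at 16.6-fold and rank 1 among the higher listed genes with a mean of at least 1 FPKM. *Slc34a2*, the sodium-phosphate cotransporter of the AT2 apical membrane, was 3.00 FPKM in WT and 34.8 FPKM in RhoA-deficient cells, a difference of 3.16 and a ratio of 11.6-fold. It held rank 4 among the higher listed genes. *Slc4a5*, a sodium-bicarbonate cotransporter, followed with 0.733 and 5.22 FPKM, a difference of 1.84. No other member differed upward by more than *Slc4a5*.

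*Slc26a4* lies on the minus strand of GRCm38 chromosome 12 from 31519827 to 31559969, *Slc34a2* on the plus strand of chromosome 5 from 53038081 to 53071664, and *Slc4a5* on the plus strand of chromosome 6 from 83219828 to 83304945. All are protein coding, and no exon of these 3 overlaps an exon of another gene in the GENCODE M21 annotation. Their promoter windows are printed because these genes had the largest upward differences in log2(FPKM + 1). By plain ratio *Slc4a5*, at 7.12-fold, stood behind *Slc13a3*, at 8.10-fold, whose level was far lower. Each window runs 5′ to 3′ on the gene's strand from 250 bases before to 50 bases after a transcript start annotated by RefSeq (GRCm38.p6). Capitals mark matches to any of 5 motifs that were searched on both strands. The motif of the transcription factor STAT6 was taken as TTC followed by any 4 bases and then by GAA. The core of the response element bound by the aryl hydrocarbon receptor (AhR) was taken as GCGTG. The site of the TEAD factors, which act with YAP, was taken as GGAATG. The TATA box, which positions the start of transcription in some promoters, was taken as TATAAA, and the CArG box of serum response factor was the remaining motif. The window of *Slc6a19*, described further below, is shown as that of a gene that was lower.
Slc26a4, chr12:31559935-31560234, minus strand: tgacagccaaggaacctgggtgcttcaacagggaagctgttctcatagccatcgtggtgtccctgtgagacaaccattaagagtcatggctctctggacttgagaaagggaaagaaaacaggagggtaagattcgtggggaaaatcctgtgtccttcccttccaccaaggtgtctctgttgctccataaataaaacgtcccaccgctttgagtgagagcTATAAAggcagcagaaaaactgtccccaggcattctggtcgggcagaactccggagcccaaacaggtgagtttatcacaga
Slc34a2, chr5:53049103-53049402, plus strand: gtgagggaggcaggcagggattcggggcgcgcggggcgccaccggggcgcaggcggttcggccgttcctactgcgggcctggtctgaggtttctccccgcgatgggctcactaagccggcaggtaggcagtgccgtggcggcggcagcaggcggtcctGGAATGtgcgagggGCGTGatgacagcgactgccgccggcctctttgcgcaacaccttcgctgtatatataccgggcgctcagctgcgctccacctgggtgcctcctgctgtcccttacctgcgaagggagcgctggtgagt
Slc4a5, chr6:83237125-83237424, plus strand: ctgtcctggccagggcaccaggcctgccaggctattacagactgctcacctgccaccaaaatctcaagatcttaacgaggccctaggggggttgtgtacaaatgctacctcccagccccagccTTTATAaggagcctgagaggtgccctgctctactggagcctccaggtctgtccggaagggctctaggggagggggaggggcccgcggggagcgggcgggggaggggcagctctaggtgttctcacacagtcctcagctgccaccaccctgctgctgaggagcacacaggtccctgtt
Slc6a19, chr13:73692587-73692886, minus strand: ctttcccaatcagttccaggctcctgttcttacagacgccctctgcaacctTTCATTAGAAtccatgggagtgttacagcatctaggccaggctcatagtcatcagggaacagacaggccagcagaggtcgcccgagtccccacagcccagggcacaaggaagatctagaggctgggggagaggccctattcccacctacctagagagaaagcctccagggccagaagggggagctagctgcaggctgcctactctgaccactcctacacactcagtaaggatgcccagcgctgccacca

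No motif was found in all 3 windows of the higher genes. *Slc26a4* held TATAAA on its own strand, 31 to 26 bases before the start. *Slc34a2* held GGAATG from 92 to 87 and GCGTG from 78 to 74 bases before its start, both on its own strand. *Slc4a5* held TATAAA read on the opposite strand, 127 to 122 bases before its start. The window of *Slc6a19*, which was lower, held the STAT6 motif at positions -199 to -190 from its start. The RefSeq starts used for *Slc34a2*, *Slc4a5* and *Slc6a19* lie 11272, 17547 and 12229 bases from the GENCODE start of the gene, so these windows belong to an internal start and other starts of these genes are not shown.

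RefSeq promoters of 19 of the 30 members were used, with 23 windows in all because *Kcnk2* and *Slc39a8* have several. The letters TATAAA, on either strand, were in the windows of 4 member genes, *Slc26a4*, *Slc4a5*, *Kcnj15* and *Slc1a3*. Only the match of *Slc26a4* was on the gene's own strand. The opposite-strand match of *Slc1a3* lay at positions -161 to -156 and that of *Kcnj15* at 9 to 14, after the start. These matches are not read as boxes that position a start. All 4 genes were higher, as were 16 of the 19 genes with a window. The letters were in 4 of the 23 member windows (17.4%), beside 13.6% of all 32851 promoter windows of the same length. The STAT6 motif was in windows of 3 members, *Kcnk2*, *Slc10a6* and *Slc6a19*, or 4 member windows (17.4%), beside 6.95% of all windows and 6.57% of those of listed genes. GCGTG was found for *Atp7a*, *Kcnk2*, *Slc34a2*, *Slc39a8* and *Trpm6*, in 26.1% of member windows and 32.4% of all windows. GGAATG was found for *Atp6v0a4*, *Kcnk2*, *Slc10a6*, *Slc34a2* and *Slc39a8*, in 21.7% of member windows and 14.7% of all windows. The CArG box was in 0 member windows and in 1.63% of all windows. No motif was in the windows of all these members, and a match describes letters in a window, not a bound site. The median GC content was 58.7% in the member windows, 58.0% in those of all listed genes and 52.7% in all windows.

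**Figure D1:**
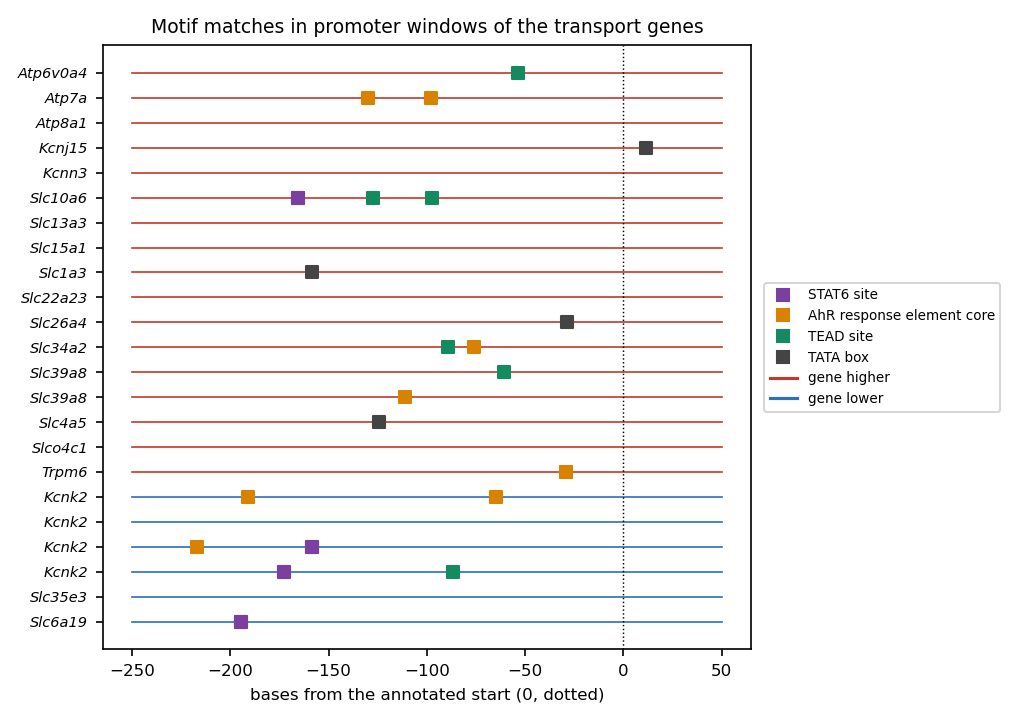
Positions of motif matches (squares, coloured by motif) in the 23 promoter windows of 19 transport genes; the horizontal axis is distance in bases from the RefSeq start, and line colour gives the direction of the gene's FPKM. The TATA box squares, which count TATAAA on either strand, lie on windows of higher genes, to which 17 of the 23 windows belong. The STAT6 and TEAD squares lie on windows of both directions.

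Anion and sodium transport did not move one way as a group. The third anion gene in the table, *Clca3a2*, of a family of regulators of calcium-activated chloride current, was lower, with 1.33 FPKM in WT and 0.211 FPKM in RhoA-deficient cells and a difference of -0.94. Its mean, 0.769 FPKM, was under the bound of 1 FPKM used below, and the anion genes above that bound, *Slc26a4* and *Slc4a5*, were higher. *Clca3a2* lies on chromosome 3 from 144796559 to 144819494, minus strand. *Slc9a2*, a sodium-proton exchanger, was also lower, at 6.76 and 2.702 FPKM, with a difference of -1.07. The other genes of chloride and bicarbonate handling, a list of 29 genes outside the symbol families, had 5 in the table. Of these, 4 were higher: *Car2* and *Car8*, of the carbonic anhydrase family, went from 24.5 to 57.8 and from 10.5 to 26.8 FPKM, the volume-regulated anion channel subunit *Lrrc8d* from 20.96 to 35.2 FPKM, and *Clic5*, an intracellular chloride channel protein that also marks AT1 cells, from 81.5 to 120.4 FPKM. The GABA-gated chloride channel subunit *Gabrp* was lower, at 15.2 and 8.16 FPKM.

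In the phosphate pathway *Slc34a2* stood alone in its direction. Of 14 other phosphate-handling genes, 2 were listed, and both were lower, where 44.8% of all listed genes were lower. For this list and the other pathway lists, the share of all protein-coding genes that were listed, 3.60%, is the value to set beside the count. *Enpp2*, which encodes the lysophospholipase autotaxin, was 6.83 FPKM in WT and 1.89 FPKM in RhoA-deficient cells, and the ectonucleotide pyrophosphatase *Enpp3* was 4.41 and 0.663 FPKM. Among 30 genes of alveolar fluid and salt transport, 4 were listed. *Kcnq1* and the cyclic nucleotide-gated channel subunit *Cnga1* were higher, the latter at 1.00 and 6.35 FPKM. *Slc9a2* and *Fxyd5*, a regulator of the sodium-potassium pump, were lower, *Fxyd5* at 85.1 and 35.8 FPKM. Its relative *Fxyd4* was higher, at 4.08 and 14.8 FPKM, as was *Rab27a*, a small GTPase of vesicle docking, at 4.03 and 8.76 FPKM, so 2 of the 3 listed genes among 26 channel and pump regulators were higher.

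Potassium channels formed the largest group of listed channels, with 5 of 94 annotated genes (5.32%, beside 4.18% of all genes under the rule). Of these 5, 4 were higher, where 55.2% of all listed genes were higher. *Kcnj15*, an inward rectifier, was the most abundant of these in RhoA-deficient cells. It was 5.42 FPKM in WT and 18.0 FPKM in RhoA-deficient cells, a difference of 1.56. *Kcnk6*, a channel of the tandem-pore family that passes background current, was 4.59 and 12.6 FPKM, a difference of 1.28. *Kcnq1*, the voltage-gated channel of many secretory epithelia, was 1.47 and 4.23 FPKM, with a difference of 1.08, and the small-conductance calcium-activated channel *Kcnn3* was 0.444 and 1.88 FPKM, with a difference of 1.00. The exception was *Kcnk2*, a stretch- and lipid-sensitive tandem-pore channel. *Kcnk2* was the highest of the 5 listed potassium channels in WT cells, at 21.1 FPKM and was 10.3 FPKM in RhoA-deficient cells, a difference of -0.97. *Kcnk2* was therefore first of the 5 in WT but stood behind *Kcnj15* and *Kcnk6* in RhoA-deficient cells.

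The 2 channels for divalent cations went in opposite directions. *Cacna1a*, the pore-forming subunit of the P/Q-type voltage-gated calcium channel, was 2.53 FPKM in WT and 0.146 FPKM in RhoA-deficient cells. Its ratio, 17.4-fold lower, was the largest downward ratio of the members, while its difference of -1.62 was smaller than that of *Slc38a1*. *Cacna1a* lies on chromosome 8 from 84388440 to 84640246, plus strand. *Trpm6*, a magnesium-permeable channel joined to a kinase, was higher, at 2.75 and 6.67 FPKM, with a difference of 1.03. None of 27 other calcium-handling genes was listed, beside 3.60% of all protein-coding genes.

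ATP-driven transporters numbered 5, counting *Abcc3* and the copper pump *Atp7a*, which is described with the metal transporters. The vacuolar proton pump was represented by 2 subunits of its membrane sector, which differed in direction. *Atp6v0a4* was 0.789 FPKM in WT and 3.51 FPKM in RhoA-deficient cells, a difference of 1.33. *Atp6v0d2* was 1.79 and 0.535 FPKM, a difference of -0.86. The aminophospholipid flippase *Atp8a1*, which moves phosphatidylserine to the cytosolic leaflet, was higher, at 16.0 and 36.6 FPKM, with a difference of 1.15. *Abcc3*, an exporter of organic anion conjugates and the only ABC transporter under the rule, was 35.9 and 59.6 FPKM, a difference of 0.71.

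Metal transporters were the most abundant group among the members, and all 4 listed were higher, where 55.2% of all listed genes were higher. *Slc39a4*, a zinc importer, was the highest of the 30 transport genes in both groups, at 126 FPKM in WT and 249.6 FPKM in RhoA-deficient cells, a difference of 0.98. *Slc11a2*, the divalent metal transporter that imports iron, was second in both, at 38.3 and 88.7 FPKM, with a difference of 1.19. *Slc39a8*, an importer of zinc and manganese, was 27.4 and 54.9 FPKM, a difference of 0.98, and the copper pump *Atp7a* was 4.90 and 9.24 FPKM, a difference of 0.80. The 4 FPKM ratios lay close together, from 1.89 to 2.32, unlike the anion group, and the sum of the 4 went from 197.1 to 402.5 FPKM. These are 4 of 38 metal transport genes that the mouse annotation holds under the symbol rule (10.5%), while 4.18% of all genes under the rule and 3.60% of all protein-coding genes were listed.

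Carriers of carboxylates and organic ions were the other group of more than 1 gene with a single direction, with 5 of 5 higher, where 55.2% of all listed genes were higher. The 5 are 7.25% of 69 annotated, beside the 4.18% of all genes under the rule. *Slc22a23*, a family member whose substrate is not established, was the most abundant, at 32.6 FPKM in WT and 60.8 FPKM in RhoA-deficient cells, a difference of 0.88. The monocarboxylate transporter family member *Slc16a6* was 1.73 and 6.20 FPKM, with a difference of 1.40, and the organic anion transporter *Slco4c1* was 0.732 and 2.55 FPKM, with a difference of 1.04. The remaining 2 were near the bottom of the table. *Slc10a6*, a carrier of sulfated steroids, was 0.310 and 1.43 FPKM, and *Slc13a3*, the sodium-coupled dicarboxylate carrier on chromosome 2 from 165405028 to 165473230 (minus strand), was 0.0951 and 0.770 FPKM. Their ratios spanned 1.86 to 8.10 across the group, and *Slc13a3* had both the highest ratio and the lowest level.

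Amino acid and peptide carriers were split, 2 higher and 2 lower. *Slc38a1*, a sodium-coupled carrier of glutamine and other neutral amino acids, was the sixth member by level in WT, at 21.2 FPKM, and was 6.04 FPKM in RhoA-deficient cells. Its difference of -1.66 was the largest downward difference among the members. *Slc6a19*, an epithelial neutral amino acid carrier, was 2.53 and 0.429 FPKM, a difference of -1.30. Both neutral amino acid carriers were thus lower. The glutamate and aspartate carrier *Slc1a3* was higher, at 1.05 and 3.54 FPKM with a difference of 1.15, and so was the proton-coupled peptide carrier *Slc15a1*, at 0.294 and 1.84 FPKM with a difference of 1.14. *Slc35e3*, of the nucleotide sugar transporter family, was lower, at 5.61 and 2.52 FPKM, a difference of -0.91. None of 47 annotated mitochondrial carriers and none of 23 annotated nucleoside or vitamin carriers was listed, beside 3.60% of all protein-coding genes.

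**Figure D2:**
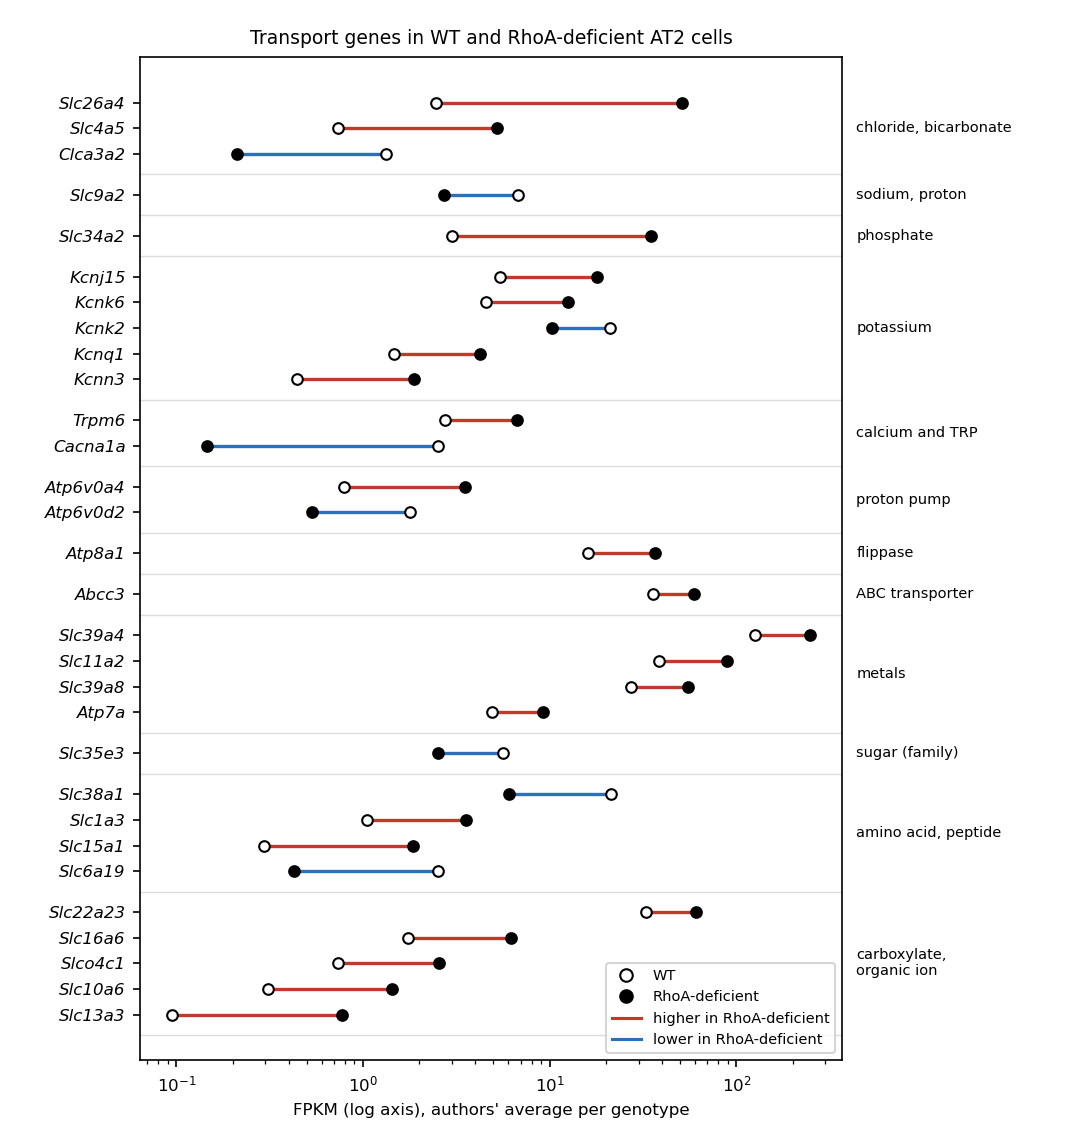
Average FPKM of each transport gene (log axis) in WT (open circles) and RhoA-deficient cells (filled circles), grouped by role, 1 value per genotype and no error; red lines join genes that were higher and blue lines genes that were lower in RhoA-deficient cells. The 4 metal transporters and the 5 carboxylate and organic ion carriers are all red, while *Slc26a4*, *Slc34a2* and *Cacna1a* have the longest lines.

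The average of the WT and RhoA-deficient values reached 1 FPKM for 27 members, and for 779 of all listed genes. *Clca3a2*, *Slc10a6* and *Slc13a3* were below it. The average takes in both groups, so some members passed only through the group where they were high. *Slc4a5*, at 0.733 FPKM in WT, passed through its RhoA-deficient value. *Cacna1a*, at 0.146 FPKM in RhoA-deficient cells, passed through its WT value. Of the 27, 20 were higher and 7 lower, 74.1% and 25.9%, where 55.8% of the 779 were higher and 44.2% lower. At least 2-fold on the log2(FPKM + 1) scale, 14 members were higher, 51.9%, against 24.6% of the 779, and 4 were lower, 14.8%, against 29.4%. Without a pseudocount 7 were at least 2-fold lower, 25.9%, against 36.3% of the 779. Since these genes had been selected on this contrast, nothing is read from these counts about the family. The median difference was 1.03 for the 27 and 0.66 for the 779. Taken by direction over all members, the median of the higher genes was 1.11, beside 0.94 for all higher listed genes, and that of the lower genes was -1.02, beside -1.14. By solute carriers and the rest, 13 of 17 and 9 of 13 were higher.

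Transport genes were of low abundance within the table. Their median FPKM over both groups was 4.39, beside 13.8 for the other 782 listed genes, and 63.3% of members were under 10 FPKM, beside 41.9% of the others. Among the other genes under 10 FPKM only 33.5% were higher, whereas 68.4% of the members under 10 FPKM were higher, 13 of 19. Among genes of at least 10 FPKM the shares were 69.6% for the others and 81.8% for the members, 9 of 11. These shares describe a selected table, with no test. The mean takes in the RhoA-deficient value, so the difference itself helps to place a gene: *Slc26a4*, *Slc34a2* and *Kcnj15* were under 10 FPKM in WT.

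**Figure D3:**
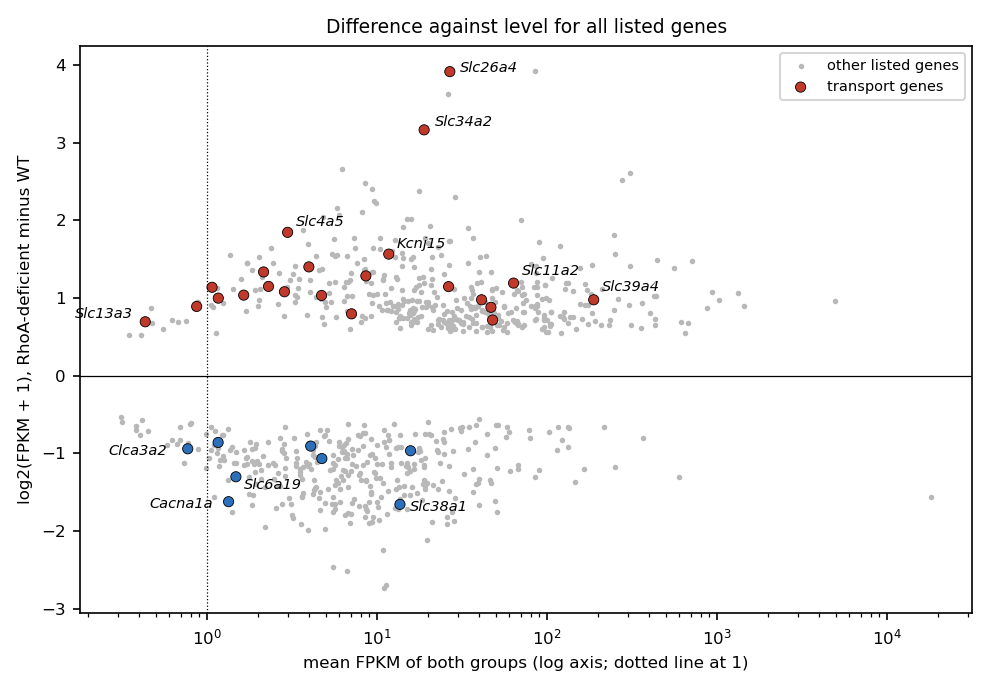
Difference in log2(FPKM + 1), RhoA-deficient minus WT, against mean FPKM (log axis) for all 812 listed genes (grey) and the 30 transport genes (red higher, blue lower); the empty band around 0 reflects that only genes the authors selected are listed. *Slc26a4* at 3.91 and *Slc34a2* at 3.16 stand near the top of the whole table, and most members under 10 FPKM lie above 0 where most grey points lie below it.

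The summed FPKM of the members was 370.4 in WT and 736.9 in RhoA-deficient cells, a ratio of 1.99, and without *Slc39a4* it was 244.0 and 487.3. The 22 higher members gained 406.5 FPKM in all, of which *Slc39a4* accounts for 30.3% and *Slc26a4* for 11.97%, and the sum of the lower ones decreased by 39.99 FPKM. The first 5 members by level, *Slc39a4*, *Slc11a2*, *Abcc3*, *Slc22a23* and *Slc39a8*, were the same genes in both groups and made up 70.4% of the sum in WT and 69.7% in RhoA-deficient cells. *Abcc3* and *Slc22a23* exchanged ranks 3 and 4, and below the first 5 the order changed more. *Slc26a4* moved from rank 18 to rank 6 and *Slc34a2* from rank 14 to rank 8. *Slc26a4* alone went from 0.664% to 6.94% of the summed FPKM of the members.

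Markers of AT2 cells and of other cells moved with the same contrast. All 17 AT2 markers of the list used here were in the table and all were higher, but this list was chosen with earlier results of these data known, so that count is no independent evidence. *Slc34a2* is 1 of the 17. Without it, the 16 AT2 markers ran from 0.93 (*Lpcat1*, a surfactant phospholipid enzyme) to 2.52 (*Chil1*, a chitinase-like secreted protein), with a median of 1.31. Their summed FPKM went from 6191 to 13368, a ratio of 2.16. Of these sums, the lysozyme gene *Lyz2* alone was 3358 FPKM in WT and 6561 FPKM in RhoA-deficient cells. The difference of 15 higher members lay within the range of these 16 markers. *Slc26a4* and *Slc34a2* lay above it, and *Abcc3*, *Atp7a*, *Slc10a6*, *Slc13a3* and *Slc22a23* lay below it. By log2 ratio without a pseudocount the AT2 markers ran from 0.94 to 2.54, and 5 members lay above that range, *Slc4a5*, *Slc13a3* and *Slc15a1* having joined, while *Slc10a6* lay within it. In WT, *Slc34a2* at 3.00 FPKM was near the low end of the AT2 markers, of which only *Etv5* was lower.

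Of 94 markers of other cell types, 27 were listed, 22 lower and 5 higher, with a median difference of -1.35 and none at 0 in either group. Beside these counts and those below, 3.60% of all protein-coding genes were listed and 44.8% of all listed genes were lower. These marker lists, too, were chosen with earlier results of these data known. The summed FPKM of the 27 markers went from 28471 to 10546. Most of this was the club cell secretoglobin *Scgb1a1*, at 27285 and 9204 FPKM, and the sum of the other 26 was 1186 and 1342 FPKM. All 7 listed ciliated cell markers of 10 were lower, from 144.4 to 56.5 FPKM in sum. So were all 4 listed lymphocyte markers of 10, from 73.4 to 17.4 FPKM, and 3 fibroblast markers of 11, from 157.2 to 62.6 FPKM. Of 13 macrophage markers 4 were listed, 2 in each direction, from 223.3 to 515.3 FPKM in sum. *Plet1* (126.9 and 376.1 FPKM) and *Cd14* (65.8 and 132.0 FPKM) were higher. *Gpnmb* (18.6 and 3.13 FPKM) and *Lpl* (11.9 and 4.08 FPKM) were lower. The AT1 markers, 4 of 10, were also split, from 548.4 to 658.9 FPKM. The only listed markers of endothelial, goblet or basal, and erythroid or platelet cells were lower (*Pecam1*, *Krt17* and *Ppbp*), and the granulocyte marker *S100a9* was higher. During isolation the authors had removed airways and had depleted cells with beads against CD45, Fc receptors, Ter119 and Sca-1, which target blood-derived and some other cells. The part of these cells in the transport genes' differences was not tested.

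**Figure D4:**
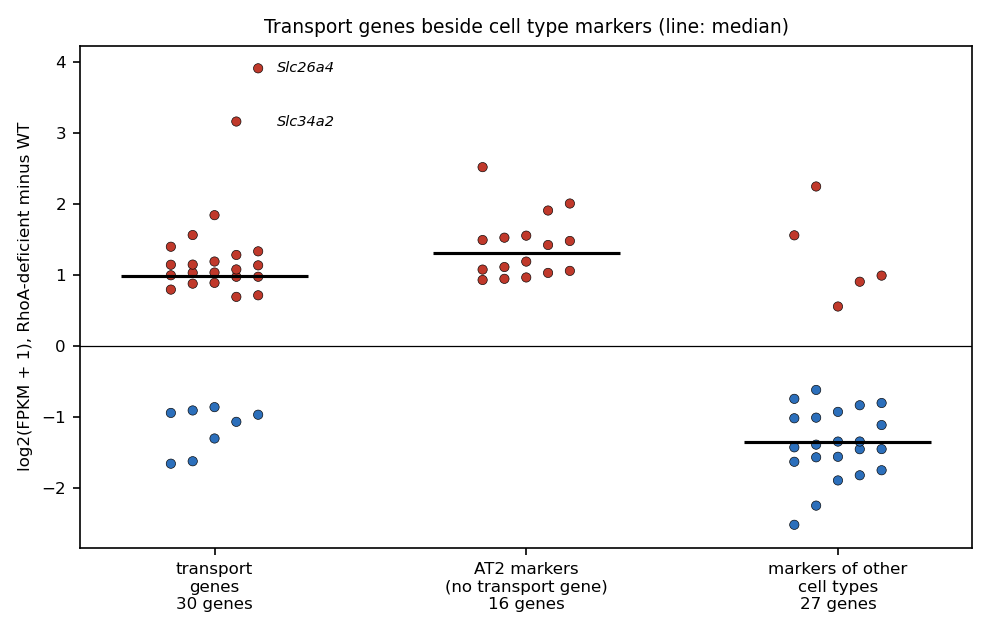
Difference in log2(FPKM + 1), RhoA-deficient minus WT, for the 30 transport genes, the 16 AT2 markers without *Slc34a2* and the 27 listed markers of other cell types; each point is 1 gene, and horizontal lines are medians. The medians are 0.99, 1.31 and -1.35, and *Slc26a4* and *Slc34a2* lie above every AT2 marker shown.

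Several members had low values or positions shared with another gene. In 11 members at least 1 of the 2 FPKM values was under 1, and the number of reads behind it is not known. The pseudocount set the order of these genes. *Slc13a3* had the smallest difference of all 30 members on the log2(FPKM + 1) scale, 0.69, and a log2 ratio of 3.02 without a pseudocount, whereas *Slc26a4* stood first among the members under every pseudocount tried. Of the 19 members with both values at 1 FPKM or more, 15 were higher and 4 lower. The share of higher genes among all listed genes under this cut was not counted, so nothing is read from these numbers about the family. Exons of 9 members overlap those of another gene, by the most for *Slc16a6*, where 22.5% of exonic bases lie opposite exons of other genes, followed by *Kcnk2* at 12.2%. For 8 members the interval in the table is longer than the gene. These are *Atp6v0a4*, *Atp8a1*, *Cacna1a*, *Kcnj15*, *Slc11a2*, *Slc16a6*, *Slc6a19* and *Slco4c1*.

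**Figure D5:**
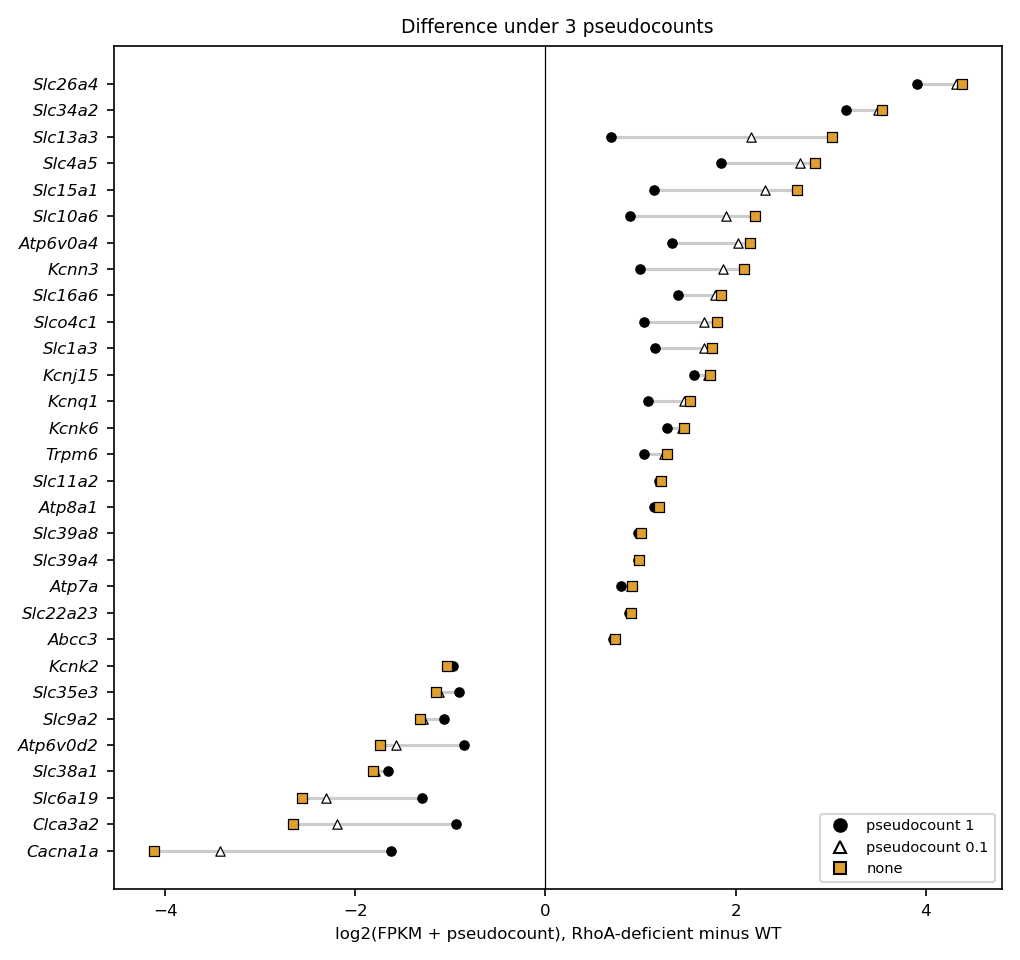
Difference between RhoA-deficient and WT cells for each transport gene on the log2(FPKM + pseudocount) scale with a pseudocount of 1 (black circles), 0.1 (open triangles) and none (squares). Genes of low FPKM such as *Slc13a3* and *Cacna1a* spread widely along the axis, abundant genes such as *Slc39a4* hardly move. A pseudocount cannot change the sign of a difference.

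Some members lie close to another listed gene, with distances taken between the listed intervals. Within 100 kb, 7 members had such a neighbour, and in 6 of the 7 cases both genes went the same way, beside 74.2% of the 178 listed genes with a listed neighbour that near, so the count is close to that of the table. *Slc34a2* and *Sel1l3*, 35.4 kb apart, were both higher, the latter at 4.97 and 9.18 FPKM. *Kcnq1* and the tetraspanin *Cd81*, 38.4 kb apart, were both higher too. So were *Slc16a6* and the G protein subunit *Gna13*, whose listed intervals lie 24.6 kb apart. The interval of *Slc16a6* is longer than the gene, so the genes themselves may lie further apart. *Slc35e3* was lower while the carboxypeptidase *Cpm*, 46.3 kb away, was higher.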

How the data were processed

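The labels list 8 samples, 4 per genotype. The FPKM values are those the authors deposited, 1 average per genotype for 812 genes. The authors sequenced mRNA, aligned reads with STAR 2.7.2b, annotated them with Partek and compared the genotypes with Cufflinks, which divides fragments by transcript length and library size. The deposited table also holds the authors' log2 fold change, test statistic, p-value, q-value and a mark of significance carried by every gene; none of these was used. The submitters' notes name mm9 and the paper GRCm38; 651 of the 812 intervals equal GENCODE M21 (GRCm38) gene spans, so GRCm38 was used. Which samples entered the averages and whether the estimates used the strand that the library kit keeps are not given in the sources used here.

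Computed here were differences in log2(FPKM + 1), ratios, ranks, counts with a mean FPKM of at least 1, exon overlaps and motif matches in 300 bases of RefSeq promoters for 19 members; the window of 1 more is not reported here. Depth is unknown, and differences of low genes are understated by the pseudocount. No test was possible, although limma had been planned if the table held samples. No rescaling could be tried on a table of selected genes; the smallest absolute log2 ratio of a member was 0.73. Every member is named. The members and the 16 gene lists were chosen with earlier results of these data known. Alternatives changed the pseudocount, filters and fold. The calculations were tested on simulated data and run with NumPy 2.4.6, Matplotlib 3.10.9 and pandas 2.3.3 under Python 3.11.15.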

Additional observations from a re-analysis of the deposited data

How the results depend on the processing

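The 9 alternatives changed the pseudocount, the filters or the fold, none of which can change a member's direction. Of the 27 members with a mean FPKM of at least 1, 4 were at least 2-fold lower; this became 7 with a pseudocount of 0.1, of 0.01 or none, and also at a fold of 1.5. Between a pseudocount of 1 and none, the folds of 9 of these 27 and of 12 of all 30 members moved by over 1.5 times. With a mean FPKM of at least 5, 11 members were higher and 2 lower, and 6 and 1 of them by at least 2-fold. For this filter, the other folds and the exclusions below, the shares of all listed genes were not counted. Nothing is therefore read from these counts about the family. At a fold of 3, 3 were higher and 2 lower. Without members whose exons overlap another gene, 8 of 19 remaining members were at least 2-fold higher, and without members whose interval is longer than the gene 8 of 19 were higher and 2 lower by that size. No paired analysis was possible because each genotype has a single averaged value per gene, and for the same reason leaving out single samples was not run. Depth and the spread between samples are unknown and the authors' test statistics were not used, so differences are given without an error, low FPKM values have an unknown number of reads, and genes the authors did not list were not analysed here. No library could be examined alone, and no adjustment was made for cell types, whose markers differed between the groups.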
